A study of Mus musculus with 6 samples.

Results

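Arginine handling and alternative activation in mouse macrophages were followed through 10 genes, chosen by symbol: Arg1, Arg2, Nos2, Ass1, Odc1, Chil3, Retnla, Il4ra, Pparg and Tgm2. All 10 were present among the 54446 entries of the deposited expression table. RNA had been sequenced from macrophages derived from the bone marrow of C57BL/6 mice aged 6 weeks, given PBS (2 samples), 5 µM KN93 (2 samples) or 10 µM KN93 (2 samples). KN93 is a small molecule that inhibits calcium/calmodulin-dependent protein kinases, and PBS is the buffer control. The labels state neither the treatment time nor any added cytokine. The names of the value columns, those of PBS included, begin with DXM. The labels do not say what DXM means, and whether it marks something that all samples share is not known. Nor do they say whether replicates were separate cultures or animals, so p-values reflect the variation among these libraries alone, and that variation may be technical.

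Arginase splits arginine into urea and ornithine, and ornithine feeds polyamine synthesis, while inducible nitric oxide synthase uses the same arginine to make nitric oxide. Interleukin-4 and interleukin-13, through their receptor and the transcription factor STAT6, are the classical inducers of arginase 1 and of a set of marker genes in mouse macrophages, and the nuclear receptor PPARγ takes part in that programme. Lipopolysaccharide and interferon-γ induce nitric oxide synthase.

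Levels are FPKM, fragments scaled to exon length and to the library total. Changes are differences in log2(FPKM + 1), given with the standard error (SE) from limma, and understate the change of genes with low FPKM. A gene was tested if it reached 1 FPKM in at least 2 of the 6 samples, and called at a Benjamini-Hochberg adjusted p under 0.05 over the 12722 genes tested. The values implied library totals of 24170000 to 28390000 fragments. Fragments recovered from FPKM and exon length, summed over genes, exceeded the implied total in each sample. The cause of this excess was not tested.

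The labelled cell type was checked with marker genes. Each of the 10 macrophage markers exceeded 1 FPKM, and their summed FPKM was 18962 and 18414 in PBS samples, 14934 and 14457 at 5 µM, and 8398 and 9255 at 10 µM. Most of each sum was 1 gene, Lyz2, at 15400 and 15052 FPKM in PBS samples and 5849 and 6568 FPKM at 10 µM. The sum therefore mainly follows Lyz2. Of the 10 macrophage markers, 7 fell at 10 µM against PBS, and Spi1 and Fcgr1 were not called. The 1 that rose was Cd68, at 1396 and 1511 FPKM at 10 µM, against 842 and 861 FPKM with PBS. In that comparison 22.0% of all genes tested fell and 28.5% rose, shares that stand beside each marker count here. The 12 stromal and fibroblast markers summed to 2058 and 2011 FPKM in PBS samples, 665 and 548 FPKM at 5 µM, and 407 and 387 FPKM at 10 µM. Of the 10 tested, 8 fell at 10 µM, and Pdgfra and Dcn were not called. The 10 neutrophil markers summed to 136 and 136 FPKM in PBS samples, 63.2 and 66.1 FPKM at 5 µM, and 14.6 and 17.4 FPKM at 10 µM, and the 6 tested fell at 10 µM, among them Camp, which reached 1 FPKM only in the PBS samples and passed the filter through them. Markers of eosinophils, basophils and mast cells (8 of 10) and of T, B and NK cells (9 of 10) stayed under 1 FPKM in each sample, apart from Siglecf, Mcpt8 and Cd4. No marker was at 0 in all samples. Mitochondrially encoded genes held 0.885% and 0.947% of fragments in PBS samples, 0.566% and 0.674% at 5 µM, and 0.464% and 0.378% at 10 µM. In bulk RNA, fewer cells of a type and less RNA per cell cannot be told apart. These sums and shares moved with dose in the same samples as the genes below, and their part in the results was not tested.

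Of the 10 genes, 8 passed the filter, and Nos2 and Retnla did not. Arg1 and Chil3 were under 1 FPKM at 10 µM and passed through the other 4 samples, so counts of called genes describe those that passed. At 10 µM against PBS, 5 fell (Arg1, Arg2, Chil3, Il4ra and Tgm2) and 3 rose (Ass1, Odc1 and Pparg), in a comparison that called 50.5% of all genes tested, 22.0% as falls and 28.5% as rises. At 5 µM against PBS the same 5 fell and the same 3 rose, where 30.5% of all genes were called, 15.4% as falls and 15.1% as rises. Between 10 µM and 5 µM, 5 fell and 1 rose, where 19.9% of all genes were called, 8.50% as falls and 11.4% as rises. These background splits moved with scaling. Between 10 µM and 5 µM they were 1317 falls and 1097 rises under median-of-ratios scaling, against 1081 falls and 1455 rises as deposited. At 10 µM against PBS they were 3219 falls and 2955 rises, against 2796 falls and 3631 rises as deposited. The median change of the 8 was -1.25 at 10 µM and -0.68 at 5 µM, beside 0.05 and 0.01 over all genes tested.

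The groups did not overlap for any of the 8 in any comparison, in the direction of each change. At 10 µM against PBS that was so for 76.7% of all genes tested (32.6% lower, 44.2% higher). At 5 µM against PBS it was so for 70.0% (33.0% lower, 37.0% higher), and at 10 µM against 5 µM for 63.7% (26.0% lower, 37.7% higher). Separation of all 3 groups in dose order held downward for 13.5% and upward for 18.8% of all genes tested. Separated groups were thus common in these data. Both KN93 doses were compared with the same PBS samples.

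**Figure D1:**
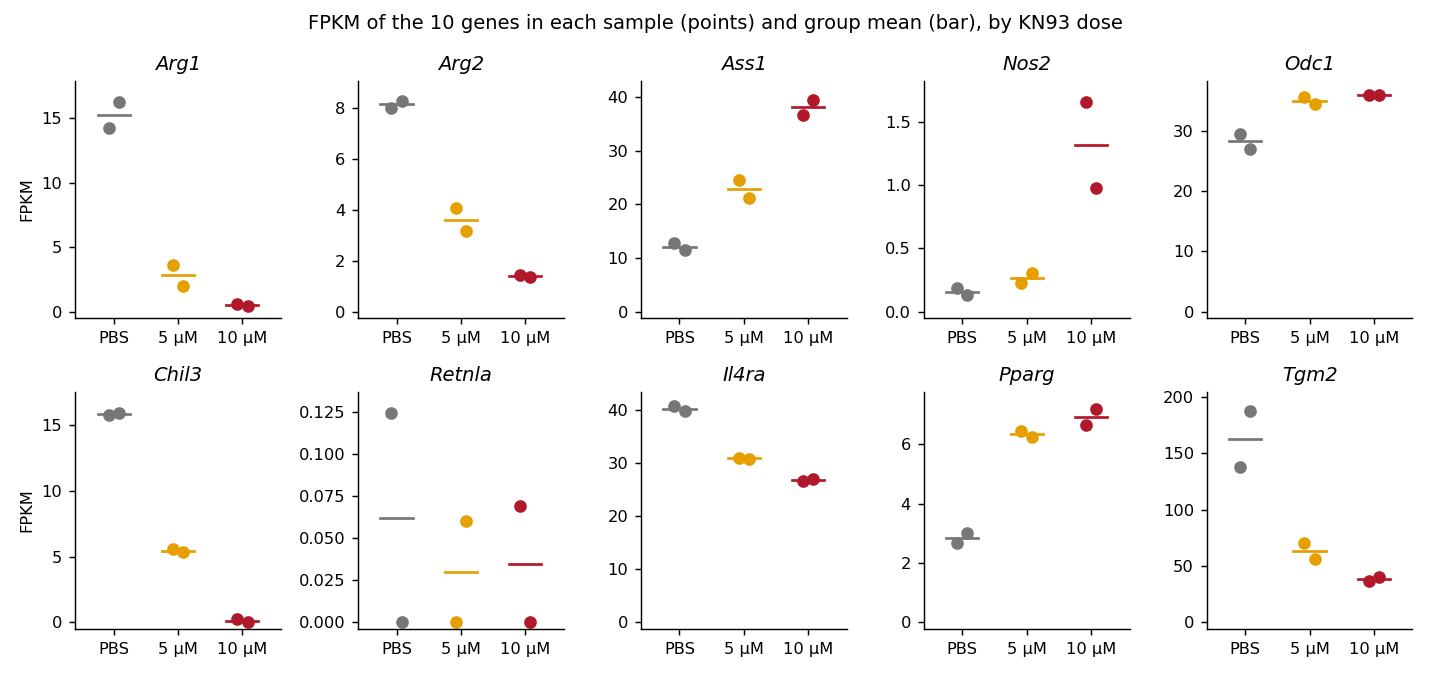
FPKM (vertical axes, linear) of the 10 genes in each of the 6 samples (points), by KN93 dose, with the group mean as a bar. Arg1, Arg2, Chil3, Il4ra and Tgm2 step down over the doses, Ass1 steps up to 36.7 and 39.5 FPKM at 10 µM, Nos2 is highest at 10 µM, and Retnla has no sample above 0.124 FPKM.

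Arg1 encodes cytosolic arginase, the usual marker of alternative activation in mouse macrophages (chromosome 10, 24915221 to 24927484, minus strand, GRCm38). It was read at 14.2 and 16.2 FPKM in PBS samples, 3.595 and 2.02 FPKM at 5 µM, and 0.557 and 0.427 FPKM at 10 µM. The groups did not overlap, and at 10 µM 30 and 27 fragments were left, against 854 and 1025 with PBS. Mean FPKM was 30.98-fold lower at 10 µM than with PBS and 5.42-fold lower at 5 µM than with PBS. The change was -3.44 ± 0.20 (limma adjusted p = 0.000111) at 10 µM, rank 13 among the falls of all genes tested, and -2.12 ± 0.20 (limma adjusted p = 0.00145) at 5 µM. Between 10 µM and 5 µM it was -1.32 ± 0.20 (limma adjusted p = 0.00989). This last call was lost without the 10 µM replicate 2 (limma adjusted p = 0.0535), within a range of 0.00443 to 0.0535 over the alternatives, and the value was -2.25 with a pseudocount of 0.1 FPKM and -2.45 with voom.

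Arg2 encodes the mitochondrial arginase (chromosome 12, 79130777 to 79156301, plus strand). Its level was 8.02 and 8.28 FPKM in PBS samples, 4.07 and 3.16 FPKM at 5 µM, and 1.45 and 1.36 FPKM at 10 µM. Each group lay apart from the others, and mean FPKM was 5.81-fold lower at 10 µM than with PBS. The change was -1.93 ± 0.10 (limma adjusted p = 8.63e-05) at 10 µM and -0.99 ± 0.10 (limma adjusted p = 0.002) at 5 µM. At 10 µM against 5 µM it was -0.93 ± 0.10 (limma adjusted p = 0.00421). Of its 1428 exon bases, 285 overlap Vti1b, a vesicle-fusion gene on the opposite strand, and whether counting used strand is not stated in the sources used here. Vti1b was at 34.9 and 34.7 FPKM at 10 µM, against 28.1 and 29.6 FPKM with PBS, the opposite order to Arg2.

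Nos2 encodes inducible nitric oxide synthase (chromosome 11, 78920787 to 78960254, plus strand). It stood at 0.185 and 0.128 FPKM in PBS samples, 0.224 and 0.303 FPKM at 5 µM, and 1.66 and 0.974 FPKM at 10 µM, from 22 and 16 fragments in PBS samples, 26 and 37 fragments at 5 µM, and 177 and 122 fragments at 10 µM. The groups did not overlap, and both 10 µM samples were high relative to the rest. Only 1 sample reached 1 FPKM, so Nos2 was not tested by the filter used for the other genes. Mean FPKM was 8.41-fold higher at 10 µM than with PBS. With no filter its change was 0.99 ± 0.16 (limma adjusted p = 0.0158) at 10 µM and 0.13 ± 0.16 (limma adjusted p = 0.72) at 5 µM. With voom on genes with at least 10 recovered fragments in 2 samples, an alternative chosen after seeing the data so that Nos2 could enter, it was 2.96 ± 0.45 (limma adjusted p = 0.000597) at 10 µM and 0.72 ± 0.53 (limma adjusted p = 0.364) at 5 µM. Between 10 µM and 5 µM it was 0.86 ± 0.16 (limma adjusted p = 0.0609) with no filter and 2.24 ± 0.37 (limma adjusted p = 0.00349) with voom, so that call depended on the method.

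Ass1 encodes argininosuccinate synthase, which with argininosuccinate lyase rebuilds arginine from citrulline (chromosome 2, 31470207 to 31520672, plus strand). Its level was 12.8 and 11.5 FPKM in PBS samples, 24.5 and 21.2 FPKM at 5 µM, and 36.7 and 39.5 FPKM at 10 µM, with no overlap between groups. Mean FPKM at 10 µM was 3.14-fold that with PBS. The change was 1.58 ± 0.09 (limma adjusted p = 0.000107) at 10 µM, the largest rise of the 8 tested, and 0.86 ± 0.09 (limma adjusted p = 0.00207) at 5 µM. The difference between the doses, 10 µM minus 5 µM, was 0.72 ± 0.09 (limma adjusted p = 0.00594). Asl, which encodes the lyase, was at 11.03 and 11.4 FPKM at 10 µM, against 10.4 and 10.2 FPKM with PBS, and its change did not pass the test at 10 µM (0.12 ± 0.05, limma adjusted p = 0.084). At 5 µM Asl was called as a rise (0.17 ± 0.05, limma adjusted p = 0.0421).

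Odc1 encodes ornithine decarboxylase, which commits ornithine to polyamine synthesis (chromosome 12, 17544794 to 17551505, plus strand). It was at 29.6 and 27.1 FPKM in PBS samples, 35.7 and 34.4 FPKM at 5 µM, and 36.1 and 36.1 FPKM at 10 µM. The PBS samples were low, and the 4 KN93 samples lay close together. The change was 0.34 ± 0.06 (limma adjusted p = 0.00449) at 10 µM and 0.30 ± 0.06 (limma adjusted p = 0.0129) at 5 µM. At 5 µM the adjusted p ranged from 0.00832 to 0.0727 over the alternatives, and the gene was not called if PBS replicate 2 (0.0606), 5 µM replicate 1 (0.0727) or 5 µM replicate 2 (0.0515) was left out. The 10 µM minus 5 µM difference was 0.04 ± 0.06 (limma adjusted p = 0.66).

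Within a sample, Arg1 was 1.78 and 1.96 times Arg2 in FPKM in PBS samples, 0.884 and 0.641 times at 5 µM, and 0.385 and 0.315 times at 10 µM. Arg1 was 76.9 and 127 times Nos2 in PBS samples, 16.1 and 6.69 times at 5 µM, and 0.336 and 0.438 times at 10 µM, where Nos2 was the higher of the pair. Ass1 was 0.574 and 0.469 times the sum of both arginases in PBS samples, 3.204 and 4.09 times at 5 µM, and 18.3 and 22.2 times at 10 µM. These ratios restate the levels above and carry no test of their own. They concern transcripts, and enzyme activity and metabolites were not measured.

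**Figure D2:**
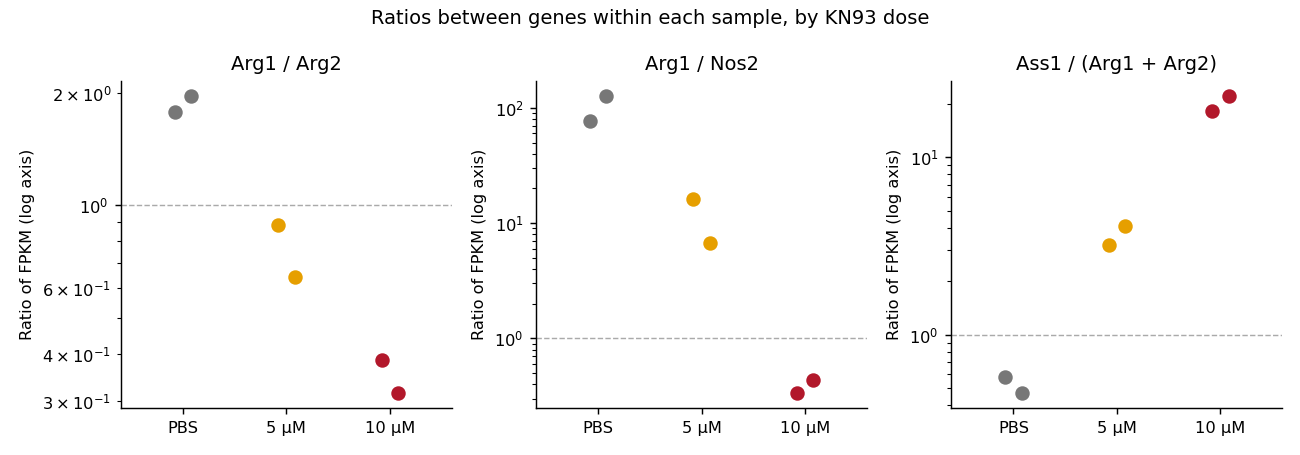
Ratios of FPKM between genes within each sample (points, log axes; the dashed line marks equal levels), by KN93 dose. Arg1 over Arg2 and Arg1 over Nos2 are below 1 at 10 µM and above 1 with PBS, and Ass1 over the summed arginases is 18.3 and 22.2 at 10 µM and 0.574 and 0.469 with PBS.

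Chil3 encodes the secreted chitinase-like protein Ym1, a marker of alternative activation in the mouse that neutrophil precursors also express (chromosome 3, 106147554 to 106167564, minus strand). It was read at 15.7 and 15.9 FPKM in PBS samples, 5.56 and 5.33 FPKM at 5 µM, and 0.228 and 0.0216 FPKM at 10 µM. The groups lay far apart. At 10 µM 9 and 1 fragments were left, together 10 with an exact 95% Poisson interval of 4.8 to 18.4 for counting error only, against 691 and 735 with PBS. The change was -3.91 ± 0.10 (limma adjusted p = 1.30e-05) at 10 µM, rank 7 among the falls of all genes tested, and -1.38 ± 0.10 (limma adjusted p = 0.000674) at 5 µM. Relative to 5 µM, the 10 µM change was -2.52 ± 0.10 (limma adjusted p = 0.000491). With so few fragments the size depended on the scale: it was -6.32 at 10 µM with a pseudocount of 0.1 FPKM and -7.59 with voom, and -4.79 and -6.02 between 10 µM and 5 µM. The neutrophil marker S100a9 was at 0.475 and 0.203 FPKM at 10 µM, against 45.3 and 48.9 FPKM with PBS, and Ngp was at 0.135 and 0.346 FPKM at 10 µM, against 27.3 and 24.1 FPKM with PBS. The part of such cells in the fall of Chil3 was not tested. The close paralog Chil4 was listed at 0 in each sample.

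Retnla encodes the secreted protein RELMα (Fizz1), another marker that interleukin-4 induces in mouse macrophages (chromosome 16, 48842551 to 48844461, plus strand). It had 2 and 0 fragments in PBS samples, 0 and 1 fragments at 5 µM, and 1 and 0 fragments at 10 µM, 4 in all. The limit that a count of 0 allows, 3 fragments, was worth 0.176 to 0.207 FPKM per sample. The groups overlapped, and a difference was not detectable at this depth. Of its family, Retnlg did not exceed 0.595 FPKM and Retnlb was listed at 0 in each sample.

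Promoter windows from RefSeq on GRCm38.p6, reaching 250 bases before and 50 after a start site, are shown for Chil3, which fell most of the 8 tested genes on the log2 scale, for Retnla, which was barely read, and for Ass1, which rose most of the 8. Capitals mark matches, on either strand, to 6 motifs: a STAT6-type motif (TTC and GAA 4 bases apart), CRE (TGACGTCA), AP-1 (TGANTCA), E-box (CACGTG), a C/EBP-type motif (TTGCNNAA) and a PPAR element (a direct repeat of AGGTCA with 1 base between).
Chil3 (chr3:106167515-106167814, minus strand): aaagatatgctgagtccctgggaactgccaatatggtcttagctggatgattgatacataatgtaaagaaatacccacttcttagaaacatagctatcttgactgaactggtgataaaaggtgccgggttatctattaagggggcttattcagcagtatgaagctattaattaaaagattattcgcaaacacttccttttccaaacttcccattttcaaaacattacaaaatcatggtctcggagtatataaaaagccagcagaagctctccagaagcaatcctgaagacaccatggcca
Retnla (chr16:48842359-48842658, plus strand): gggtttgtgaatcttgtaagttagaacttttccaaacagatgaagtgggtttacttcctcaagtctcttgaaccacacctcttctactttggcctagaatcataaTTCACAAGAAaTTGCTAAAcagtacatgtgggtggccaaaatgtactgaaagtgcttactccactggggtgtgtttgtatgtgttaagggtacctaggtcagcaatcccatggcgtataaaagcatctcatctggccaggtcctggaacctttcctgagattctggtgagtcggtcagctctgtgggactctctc
Ass1 (chr2:31470020-31470319, plus strand): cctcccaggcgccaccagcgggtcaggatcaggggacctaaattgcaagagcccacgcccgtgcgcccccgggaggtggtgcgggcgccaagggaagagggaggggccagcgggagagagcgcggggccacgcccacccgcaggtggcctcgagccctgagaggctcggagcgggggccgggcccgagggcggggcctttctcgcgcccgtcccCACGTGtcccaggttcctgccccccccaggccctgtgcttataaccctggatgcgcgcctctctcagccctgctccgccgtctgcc
The Chil3 window held none of the 6 motifs. The Retnla window held a STAT6-type match, found in 6.95% of the 32851 windows of the table, and near it a C/EBP-type match, found in 10.8%. The Ass1 window held an E-box, found in 7.15%. CRE was found in 1.79% of windows, AP-1 in 7.81% and the PPAR element in 0.0396%. The windows of Il4ra and Odc1 held no match, and 1 of the 3 windows of Pparg held 2 C/EBP-type matches. The table had a window for 6 of the 10 genes and gave none for Arg1, Arg2, Nos2 and Tgm2. A match is a run of letters and not a site of binding, and a window without one says nothing about the factor.

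Il4ra encodes the receptor chain shared by interleukin-4 and interleukin-13 (chromosome 7, 125552120 to 125579474, plus strand). Its level was 40.7 and 39.9 FPKM in PBS samples, 31.02 and 30.8 FPKM at 5 µM, and 26.6 and 26.97 FPKM at 10 µM. The spread within each group was narrow and the groups did not overlap. The change was -0.57 ± 0.04 (limma adjusted p = 0.000228) at 10 µM and -0.37 ± 0.04 (limma adjusted p = 0.00261) at 5 µM, smaller in size than those of the other 4 genes that fell. Set against 5 µM, the 10 µM change was -0.20 ± 0.04 (limma adjusted p = 0.0257). That call was lost when any 1 of the 6 samples was left out: adjusted p was 0.0556 and 0.0556 without the PBS replicates 1 and 2, 0.115 and 0.115 without the 5 µM replicates, and 0.0779 and 0.0666 without the 10 µM replicates. It was also lost with only the 2 groups in the fit (0.0549). An antisense transcript, Gm44876, overlaps 571 of its exon bases and did not exceed 5.55 FPKM.

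Pparg encodes PPARγ (chromosome 6, 115360951 to 115490399, plus strand). It was at 2.68 and 2.9997 FPKM in PBS samples, 6.43 and 6.26 FPKM at 5 µM, and 6.64 and 7.17 FPKM at 10 µM. The 4 KN93 samples were high and close together, and both PBS samples were low. Mean FPKM at 10 µM was 2.43-fold that with PBS. The change was 1.04 ± 0.07 (limma adjusted p = 0.00016) at 10 µM and 0.94 ± 0.07 (limma adjusted p = 0.000752) at 5 µM. For 10 µM against 5 µM it was 0.11 ± 0.07 (limma adjusted p = 0.315).

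Tgm2 encodes tissue transglutaminase, which crosslinks proteins and marks alternative activation in mouse and human macrophages (chromosome 2, 158116402 to 158146436, minus strand). It was read at 138 and 187 FPKM in PBS samples, 70.1 and 55.98 FPKM at 5 µM, and 36.6 and 40.2 FPKM at 10 µM. It had the highest FPKM of the 10 genes in the PBS and 5 µM samples, while at 10 µM Tgm2, Ass1 and Odc1 lay between 36.1 and 40.2 FPKM. The change was -2.04 ± 0.17 (limma adjusted p = 0.000382) at 10 µM and -1.34 ± 0.17 (limma adjusted p = 0.00396) at 5 µM. Between 10 µM and 5 µM it was -0.69 ± 0.17 (limma adjusted p = 0.0412), a call lost without the 5 µM replicates 1 and 2 (0.156 and 0.0709), without the 10 µM replicates 1 and 2 (0.147 and 0.106), with no filter (0.137) and without the intensity trend (0.0537). Gm20412 on the opposite strand overlaps 633 of its exon bases. Its level was 6.405 and 9.96 FPKM at 10 µM, against 30.4 and 49.7 FPKM with PBS, the same order as Tgm2. Reads in the shared bases cannot be told apart if counting ignored strand. Fragments recovered for Gm20412 were 518 and 891 with PBS and 98 and 179 at 10 µM. For Tgm2 they were 17065 and 24478 with PBS and 4074 and 5255 at 10 µM. Rprd1b, also on the strand opposite Tgm2, overlaps 370 bases and was at 3.88 and 4.44 FPKM at 10 µM, against 5.77 and 6.76 FPKM with PBS. Cells other than macrophages also express Tgm2, and the stromal marker Acta2 was at 74.5 and 79.3 FPKM at 10 µM, against 657 and 672 FPKM with PBS. Acta2 was 1 of the 8 stromal markers that fell, of 10 tested. The other 2, Pdgfra and Dcn, did not pass the test at 10 µM (limma adjusted p = 0.78 and 0.545). The part of cells other than macrophages in the fall of Tgm2 was not tested.

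**Figure D3:**
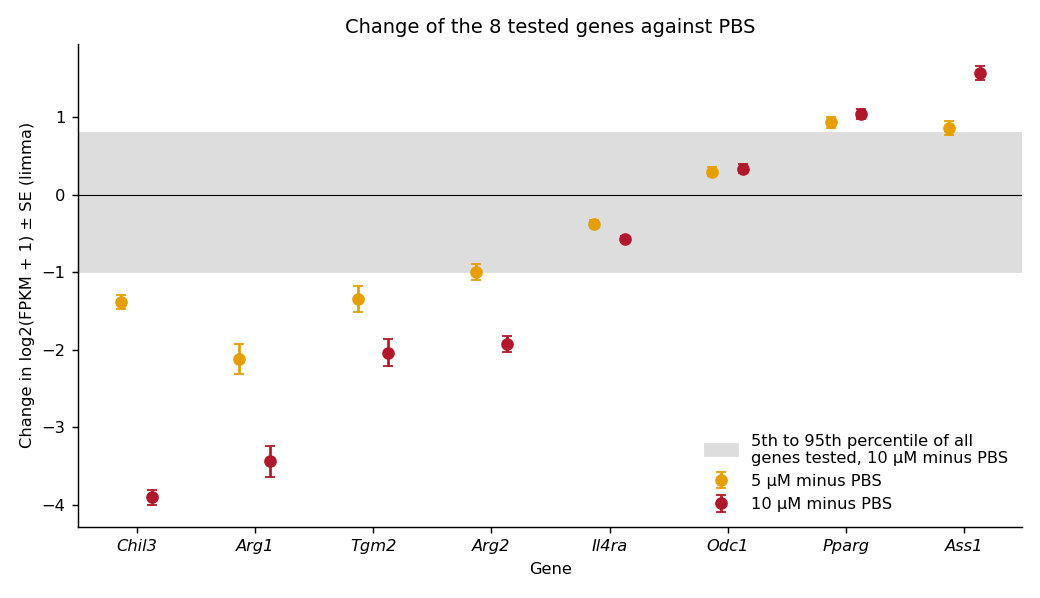
Change in log2(FPKM + 1) with its limma standard error for the 8 tested genes, at 5 µM and at 10 µM KN93 minus PBS (n = 2 per group); the grey band spans the central range of all genes tested at 10 µM, as its legend gives. At 10 µM Chil3, Arg1, Tgm2 and Arg2 lie below the band, Pparg and Ass1 lie above it, and Il4ra and Odc1 lie inside it.

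Whether the step between 10 µM and 5 µM differed from the step between 5 µM and PBS was tested in the same fit, which called 5.36% of all genes (2.88% with a positive and 2.48% with a negative difference). For Pparg the second step was smaller than the first, with a difference of -0.83 ± 0.12 (limma adjusted p = 0.0284). For Chil3 the second fall was larger than the first, with a difference of -1.14 ± 0.17 (limma adjusted p = 0.0309), or -3.27 with a pseudocount of 0.1 FPKM, where it was not called (adjusted p = 0.0704), and -4.45 with voom. For Arg1 the difference was 0.80 ± 0.34 (limma adjusted p = 0.213), and its size ranged from 0.087 to 1.40 over the alternatives. Mean FPKM of Arg1 was 5.42-fold lower at 5 µM than with PBS and 5.71-fold lower at 10 µM than at 5 µM. No difference passed the test for Arg2, Ass1, Il4ra, Odc1 or Tgm2 (limma adjusted p = 0.871, 0.608, 0.2, 0.168 and 0.237). The Chil3 call was lost without the PBS replicates 1 and 2 (adjusted p = 0.0957 and 0.0775) and without the 5 µM replicates 1 and 2 (0.135 and 0.182). The Pparg call was lost when any 1 sample was left out, at adjusted p = 0.0804 and 0.0532 for PBS, 0.132 and 0.179 for 5 µM, and 0.0739 and 0.0508 for 10 µM. With no filter adjusted p was 0.102 for Chil3 and 0.0955 for Pparg.

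Other markers of alternative activation that could be tested were mostly lower. Of the 21 listed, 20 were in the table and 9 were tested. The medians of the 9 were -1.09 at 10 µM and -0.67 at 5 µM. The 10 macrophage markers had medians of -1.10 and -0.47, so a fall of this size was not particular to this list. At 10 µM 7 of the 9 fell and 0 rose, where 22.0% of all genes tested fell and 28.5% rose. At 5 µM 7 of the 9 fell and 1 rose, where 15.4% of all genes fell and 15.1% rose. Among these falls are Cd163 and Clec10a, which reached 1 FPKM only in the PBS samples and passed the filter through them, so the counts describe the genes that passed. Marco, which encodes a scavenger receptor, was at 3.29 and 3.44 FPKM at 10 µM, against 217 and 203 FPKM with PBS. The coagulation factor gene F13a1 was at 0.688 and 0.883 FPKM at 10 µM, against 41.01 and 42.7 FPKM with PBS. Mrc1, which encodes the mannose receptor CD206, was 4.88-fold lower at 10 µM than with PBS, and Fn1, which encodes fibronectin, was 2.13-fold lower. The other falls were Cd163, Msr1 and Clec10a. The 1 rise at 5 µM was that of Clec7a (0.54 ± 0.10, limma adjusted p = 0.0132). It was at 141 and 142 FPKM there, against 89.4 and 104 FPKM with PBS. At 10 µM Clec7a was not called (-0.08 ± 0.10, limma adjusted p = 0.539), and Matk was called at neither dose. The 11 that were not tested did not exceed 0.856 FPKM, among them Ccl17, Ccl22, Mgl2, Pdcd1lg2 and Alox15.

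Of genes of interleukin-4 and interleukin-13 signalling, 14 of 20 listed were tested. At 10 µM 5 rose and 3 fell, where 28.5% of all genes tested rose and 22.0% fell, and at 5 µM 2 rose and 2 fell, where 15.1% of all genes rose and 15.4% fell. The medians were 0.05 and 0.01, as over all genes. Klf4, which encodes a transcription factor of the STAT6 programme, was at 11.3 and 9.94 FPKM at 10 µM, against 3.67 and 4.26 FPKM with PBS (1.23 ± 0.12, limma adjusted p = 0.000717). Egr2, which encodes another transcription factor, was at 4.91 and 6.23 FPKM at 10 µM, against 2.66 and 2.804 FPKM with PBS (0.81 ± 0.12, limma adjusted p = 0.00313). Socs3, which encodes an inhibitor of cytokine signalling, changed by -1.49 ± 0.11 (limma adjusted p = 0.000244). The receptor-bound kinase gene Jak1 changed by 0.42 ± 0.05 (limma adjusted p = 0.00113) and Stat6 by 0.22 ± 0.05 (limma adjusted p = 0.0104). Il13 was listed at 0 in each sample, and Il4 did not exceed 0.424 FPKM.

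Of partners and targets of PPARγ, 18 of 20 listed were tested. At 10 µM 3 rose, 5 fell and 10 were not called, and at 5 µM 3 rose, 3 fell and 12 were not called, against the same shares of all genes. The medians were 0.02 and 0.13. Fabp4, which encodes a fatty acid binding protein, was at 70.8 and 81.7 FPKM at 10 µM, against 6.25 and 7.41 FPKM with PBS, 11.2-fold higher. Plin2, whose product coats lipid droplets, changed by 0.51 ± 0.07 (limma adjusted p = 0.00247). Lpl, which encodes lipoprotein lipase, was at 12.3 and 12.3 FPKM at 10 µM, against 40.2 and 40.4 FPKM with PBS. Cd36 was at 188 and 197 FPKM at 10 µM, against 205 and 234 FPKM with PBS, and did not pass the test (-0.19 ± 0.08, limma adjusted p = 0.0937).

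**Figure D4:**
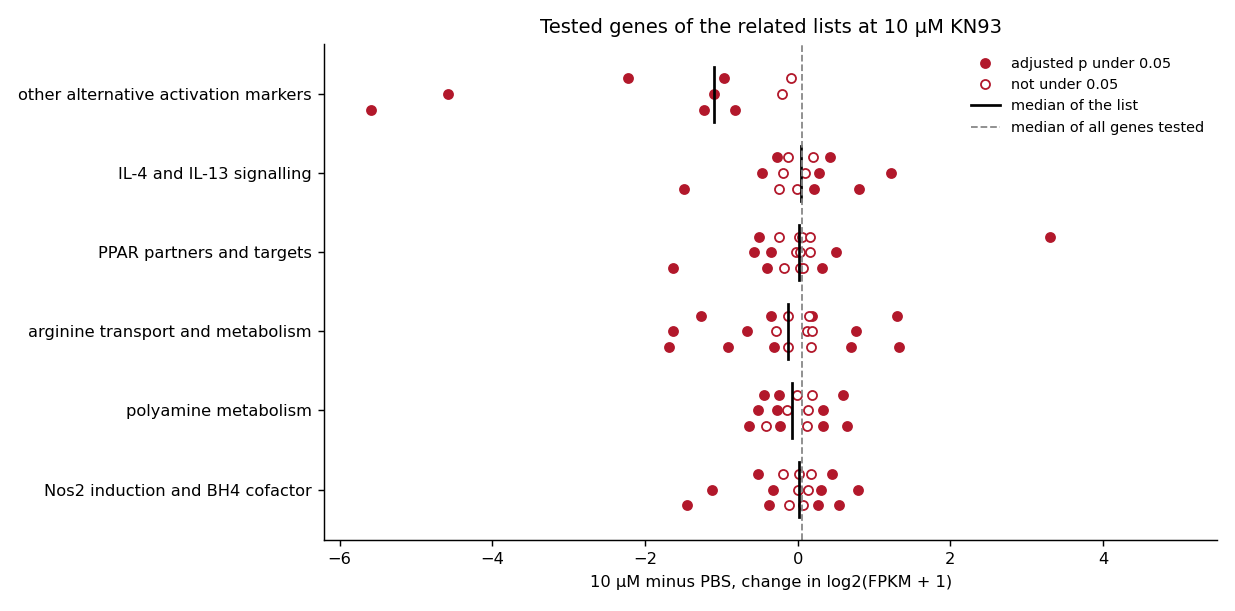
Change in log2(FPKM + 1) at 10 µM KN93 minus PBS for the tested genes of 6 related lists (points; filled where the limma adjusted p is under 0.05), with the median of each list as a black line and the median of all genes tested (0.05) as a dashed line. The 9 other markers of alternative activation have a median of -1.09, and the other 5 lists have medians between -0.12 and 0.05 with members on both sides of 0.

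In arginine transport and metabolism, 19 of 23 listed genes were tested. At 10 µM 5 rose and 7 fell, where 28.5% of all genes tested rose and 22.0% fell. At 5 µM 5 rose and 5 fell, where 15.1% of all genes rose and 15.4% fell. The medians were -0.12 at 10 µM and -0.10 at 5 µM. The cationic amino acid transporter genes of this list did not share a direction at 10 µM. Slc7a2, which encodes CAT2, was at 6.89 and 6.26 FPKM at 10 µM, against 2.14 and 1.89 FPKM with PBS (1.33 ± 0.07, limma adjusted p = 9.32e-05), and Slc7a1, which encodes CAT1, was at 7.98 and 7.02 FPKM at 10 µM, against 4.27 and 4.17 FPKM with PBS (0.70 ± 0.07, limma adjusted p = 0.000753). Slc3a2, which encodes the heavy chain CD98 shared by several amino acid transporters, was at 240.4 and 249 FPKM at 10 µM, against 96.95 and 101 FPKM with PBS. Slc7a7, whose product pairs with CD98 to carry cationic amino acids, was at 7.65 and 7.65 FPKM at 10 µM, against 12.97 and 12.3 FPKM with PBS (-0.66 ± 0.07, limma adjusted p = 0.000699). Gatm, whose product uses arginine for creatine synthesis, was at 9.51 and 9.802 FPKM at 10 µM, against 32.8 and 33.7 FPKM with PBS, and fell at 5 µM too. Glul, which encodes glutamine synthetase, was 3.15-fold lower at 10 µM than with PBS. The other nitric oxide synthase genes, Nos1 and Nos3, did not exceed 0.0899 FPKM.

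Among polyamine genes, 16 of 17 listed were tested, of which 4 rose and 6 fell at each dose against PBS (medians -0.08 at 10 µM and -0.07 at 5 µM). Of all genes tested 28.5% rose and 22.0% fell at 10 µM, and 15.1% rose and 15.4% fell at 5 µM. Azin1, whose product protects ornithine decarboxylase from antizyme, was at 26.1 and 25.9 FPKM at 10 µM, against 16.02 and 16.5 FPKM with PBS (0.64 ± 0.04, limma adjusted p = 0.000193). Oaz1, which encodes antizyme 1, was at 76.03 and 85.1 FPKM at 10 µM, against 95.4 and 99.7 FPKM with PBS (-0.27 ± 0.07, limma adjusted p = 0.0175). Sat1, which encodes the acetyltransferase that starts polyamine breakdown, changed by 0.60 ± 0.06 (limma adjusted p = 0.000783). The spermidine and spermine synthase genes Srm and Sms did not pass the test at 10 µM (limma adjusted p = 0.303 and 0.235). Of the polyamine transporter genes, Atp13a2 changed by 0.33 ± 0.05 (limma adjusted p = 0.00386) and Atp13a3 by -0.63 ± 0.08 (limma adjusted p = 0.00149).

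Of genes that act on Nos2 or supply its cofactor tetrahydrobiopterin, all 17 listed were tested. At 10 µM 5 rose and 5 fell, where 28.5% of all genes rose and 22.0% fell, and at 5 µM 3 rose and 6 fell, where 15.1% rose and 15.4% fell (medians 0.01 and -0.04). Gch1, which encodes the first enzyme of tetrahydrobiopterin synthesis, was at 8.79 and 8.03 FPKM at 10 µM, against 4.63 and 4.24 FPKM with PBS (0.79 ± 0.07, limma adjusted p = 0.000389). The interferon-γ receptor gene Ifngr1 was at 24.05 and 24.4 FPKM at 10 µM, against 69.3 and 66.7 FPKM with PBS. Hif1a, which encodes the oxygen-regulated factor HIF-1α, was at 24.4 and 22.8 FPKM at 10 µM, against 53.6 and 51.5 FPKM with PBS.

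Profiles most like those of Arg1 and Pparg were ranked by the root mean square difference of log2(FPKM + 1), each gene taken relative to its own PBS mean, over the 6 samples. Only tested genes were ranked, and those with a predicted-gene name (Gm plus digits, ending in Rik, or an accession) were left out. Among the rest, the 5 nearest to Arg1 were Cd14, Olfml2b, Thbs1, Ppbp and Ctgf, at differences of 0.166 to 0.230. The 5 nearest to Pparg were Vat1, Pld3, Dtnbp1, Galnt6 and Aph1c, at differences of 0.0357 to 0.0715. These are descriptions over 3 groups of 2 samples.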

How the data were processed

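RNA sequencing of total RNA gave 6 samples, grouped by their descriptions into PBS, 5 µM and 10 µM KN93. The deposited values are FPKM in 1 table, with HISAT2 and GRCm38 named in the submitters' processing notes. The counter, annotation and strand setting are not stated in the sources used here. Of the entries, 99.93% matched GENCODE release M21 by gene ID, which gave coordinates and exon lengths. FPKM times exon length came out whole within 0.1 fragment for 98.8% to 99.0% of values up to 20 fragments. This gave the fragments and the implied library totals. The summed fragments were above the implied total in each sample, so that total may not be the full count.

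For genes with at least 1 FPKM in 2 samples, log2(FPKM + 1) was fitted in limma 3.58.1 (R 4.3.3) with all 6 samples, group as a factor and an intensity trend. P-values were two-sided and adjusted by the Benjamini-Hochberg method for 12722 genes. The code of the fit was run on simulated data with far fewer changed genes than were called here. That run does not test the fit on changes as widespread as these. Alternatives were another pseudocount, filters, scalings, no trend, the 2 groups alone, a replicate block, voom on recovered fragments, and leaving out each sample.

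The 10 genes and the lists were chosen with earlier results of these data known. Besides the 10, the rule named up to 4 genes of each list by smallest p at 10 µM, and the nearest profiles. Some genes that this rule names are not reported here. Asl, Slc7a1, Slc7a7, Oaz1, Srm, Sms, Stat6, Il4, Il13, Cd36, Cd163, Msr1, Clec10a, Camp, Nos1, Nos3, the overlapping genes and the untested markers were named after their values were seen. So were Clec7a, Matk, Lyz2, Cd68, Spi1, Fcgr1, Pdgfra and Dcn.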

Additional observations from a re-analysis of the deposited data

How the results depend on the processing

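Against PBS, the 8 tested genes kept their direction under the 16 alternatives run at both doses, and their calls held except that of Odc1 at 5 µM, given above. Leaving out 1 sample gave 7 to 8 genes called at 5 µM, 8 at 10 µM, 3 to 5 (of 6) between 10 µM and 5 µM, with 3 without the 10 µM replicate 2, and 0 to 1 (of 2) for the difference between the dose steps. For the dose steps a pseudocount of 0.1 FPKM gave 1 and no filter gave 0. Over all genes, leaving out 1 sample gave 1897 to 3856 calls at 5 µM (3881 with all samples), 869 to 1922 between 10 µM and 5 µM (2536) and 0 to 239 for the dose steps (682). No filter gave 1350 calls between 10 µM and 5 µM and 45 for the dose steps, where voom gave 1291, and 1182 on genes with 10 fragments. The cause was not tested. A group left with 1 sample is assumed to vary like the others.

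Replicate numbers follow the order of the samples, and no label ties a number to an animal or day. Deviations of same-numbered samples correlated across genes at -0.055, 0.014 and 0.037. With the replicate block, 4 of the 8 genes were called between 10 µM and 5 µM, Il4ra (adjusted p = 0.0552) and Tgm2 (0.0611) being lost, and 354 of all genes for the dose steps. Low fragment counts limit Retnla, Nos2 and the 10 µM values of Chil3 and Arg1.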
